A study of Mus musculus with 13 samples.

Results

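Vcam1-low Cx3cr1-low macrophages of the mouse fetal liver were examined in 1 single-cell RNA-seq library, in which they made up 374 of 3093 cells (12.1%, 95% exact binomial interval 10.96 to 13.29) and 374 of the 1663 cells with abundant C1q RNA (22.5%, 20.5 to 24.6). They were chosen by their measured RNA. Each count was scaled to 10000 counts per cell, and a cell belonged to the group when it had at least 200 detected genes, at least 10 per 10000 for the sum of the complement genes C1qa, C1qb and C1qc, less than 5 of Vcam1, less than 2 of Cx3cr1, and less than 4 of Tmcc2 and Xpo7 together. Because all these values, and all genes of the same cells, came from 1 library, differences between groups of cells are given below as descriptions without a test.

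Macrophages of the fetal liver form the centre of erythroblastic islands, in which maturing red cells attach to a macrophage that supports them and engulfs the nuclei they expel. Vcam1 is an adhesion molecule by which island macrophages hold erythroblasts, and Cx3cr1 is the fractalkine receptor, carried by monocytes, microglia and younger tissue macrophages. Among the genes used to mark the cells described here, Hmox1 is the heme oxygenase that opens heme and frees its iron, and Slc40a1 is ferroportin, the exporter that passes iron out of the cell. Marco is a scavenger receptor, and Cd5l is a secreted protein of macrophages.

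The study asked what the erythroid transcription factor EKLF (gene Klf1) does in F4/80+ macrophages of E13.5 (embryonic day) fetal liver from mice labelled C57BL/6, and its single-cell library held F4/80+ cells, enriched with magnetic beads, from pooled wild type (EKLF+/+) littermate embryos. The methods name a 129S4/SvJae background for the EKLF-null line. Besides that library, 12 bulk libraries of sorted F4/80+ cells fell into 4 groups of 3: EKLF+/+ and EKLF-/- (null) embryos, and EKLF/GFP+ and EKLF/GFP- cells of wild type embryos with a pEKLF-GFP transgene, in which the EKLF promoter drives GFP. The last pair also differed in the RNA kit (a Nanoprep kit for EKLF/GFP+ and Trizol for EKLF/GFP-), so the kit and the GFP gate cannot be told apart, and both pairs rest on bulk sorts in which fewer cells of a type and less RNA per cell cannot be told apart.

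Over the whole library the median cell had 18605 counts. The bulk libraries had 10695514 to 15362161 reads on genes in EKLF+/+ and EKLF-/- and 22721900 to 28735322 estimated reads in the EKLF/GFP sorts. As a check of the labels, normalised Klf1 counts were 4731.5, 3977.2 and 4905.7 in EKLF+/+ and 766.7, 838.4 and 745.5 in EKLF-/- libraries (log2 difference -2.53, SE 0.123, edgeR quasi-likelihood adjusted p = 7.224e-06), and they were 902.8, 1193.6 and 747.5 in EKLF/GFP- and 2625.6, 2355.4 and 2278.2 in EKLF/GFP+ libraries (log2 difference 1.35, SE 0.163, adjusted p = 0.000313). The groups did not overlap in either comparison.

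The 374 cells were compared with the 1289 other C1q cells, which were divided in order into 193 cells with late erythroid RNA (Tmcc2 and Xpo7 together at or above 4), 644 Vcam1-high cells (Vcam1 at or above 5) and, with Vcam1 below 5, 452 Cx3cr1-positive cells (Cx3cr1 at or above 2). The median Vcam1-low Cx3cr1-low cell had 11806.5 counts and 3204.5 detected genes, against 13769 counts in Vcam1-high and 18231 in Cx3cr1-positive cells. Their summed C1q level had a median of 33.1 per 10000 and ran from 10.0 to 113.1, and the medians were 55.8 in Vcam1-high and 40.5 in Cx3cr1-positive cells. Median Vcam1 was 1.77 per 10000 (10.2 in Vcam1-high and 0.362 in Cx3cr1-positive cells), and median Cx3cr1 was 0.0621 (0.576 and 5.48). At the median depth the limits stood at 5.90 counts of Vcam1 and 2.36 counts of Cx3cr1, so a single count could move a cell across the Cx3cr1 limit. No count of Vcam1 was found in 87 cells, none of Cx3cr1 in 187, and none of either in 35. When every cell was thinned to 5000 counts, which left out 56 cells and 6 of the 374, the same rule picked 329 cells. Of the 374 cells 234 were among these (62.6% of the first choice and 71.1% of the second).

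**Figure D1:**
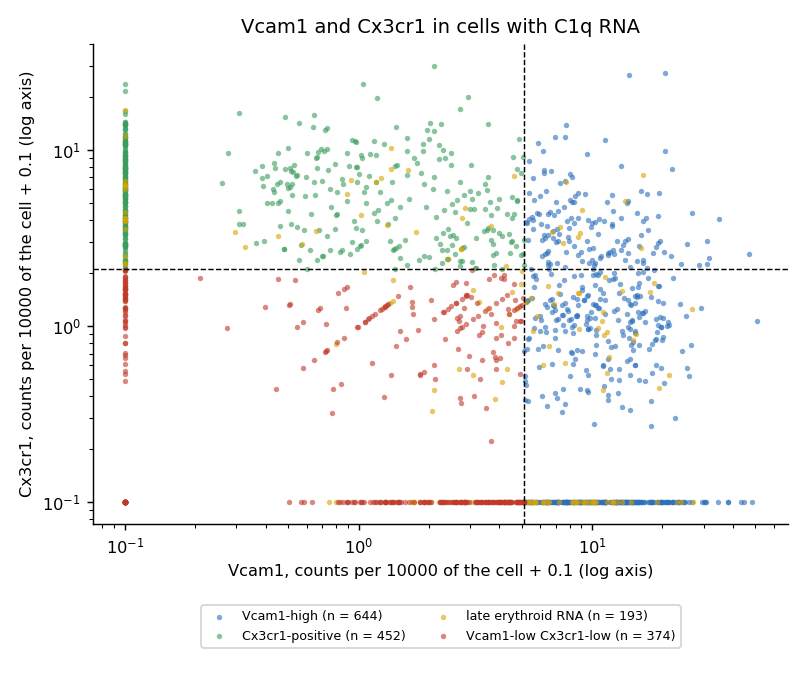
Vcam1 (horizontal axis) against Cx3cr1 (vertical axis), in counts per 10000 of each cell, for the 1663 C1q cells, with dashed lines at the limits of 5 and 2. The 374 Vcam1-low Cx3cr1-low cells fill the corner below both lines, next to the Vcam1-high and Cx3cr1-positive cells, with no empty band at either limit.

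The marker genes did not all step the same way across the limits of the rule. Just inside the Vcam1 limit (57 cells from 4 to 5 per 10000) the pooled levels of Hmox1, Slc40a1, Marco and Cd5l were 17.9, 12.7, 10.0 and 7.41, and just outside it (51 cells from 5 to 6) they were 23.9, 14.5, 7.48 and 7.33. Just inside the Cx3cr1 limit (34 cells from 1.5 to 2) they were 14.6, 8.60, 3.05 and 2.29, and just outside it (43 cells from 2 to 2.5) 10.1, 10.0, 1.99 and 3.56. Slc40a1 and Cd5l were thus higher just outside the Cx3cr1 limit, although both were lower in the Cx3cr1-positive cells together. At the C1q limit, all 4 were higher in the 53 cells from 10 to 15 (11.1, 5.53, 1.78 and 1.85) than in 112 cells of all kinds from 5 to 10 (7.98, 3.48, 1.30 and 1.26).

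Macrophage identity was checked on a list of core genes that included Adgre1, which encodes F4/80, and Csf1r, the receptor for macrophage colony-stimulating factor. The summed level of this list had a median of 65.3 per 10000 in the Vcam1-low Cx3cr1-low cells, 89.4 in Vcam1-high, 87.3 in Cx3cr1-positive and 3.55 in 333 erythroid reference cells, which were cells below the C1q limit with at least 10 per 10000 of summed red cell genes, Alas2 and Slc4a1 among them. In the 1097 other cells below the C1q limit the median was 16.01 and the upper quartile 65.6, so the list did not set the cells apart from all of those. Adgre1 stood at 4.05 per 10000, 0.564 times the level of Vcam1-high cells and 1.10 times that of Cx3cr1-positive cells. Csf1r stood at 4.99, 0.654 and 0.574 times those levels. Of the 19 Kupffer cell genes, whose sum was 48.0 per 10000 here and 3.52 in the erythroid reference cells, some were low, with 2 counts of Vsig4 in the 374 cells (0.00319 per 10000), 0.303 per 10000 of Clec4f and 0.00957 of the scavenger receptor Cd163. Klf1 had a count in 5.88% of the cells, against 77.5% of the erythroid reference cells, whose median depth was 20564 counts. At 5000 counts per cell those shares were 2.72% and 42.3%.

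All 4 marker genes were lower in the Vcam1-low Cx3cr1-low cells than in the Vcam1-high cells and higher than in the Cx3cr1-positive cells. Pooled levels (summed counts per 10000 summed total counts) are given with 95% exact Poisson intervals and ratios with exact conditional binomial intervals, and both cover counting error only. Hmox1 stood at 17.4 per 10000 (17.1 to 17.8), against 34.2 in Vcam1-high and 11.2 in Cx3cr1-positive cells. The ratios were 0.509 (0.499 to 0.52) and 1.55 (1.51 to 1.595). Slc40a1 stood at 10.7 (10.4 to 10.9), against 18.1 and 9.15, with ratios of 0.589 (0.573 to 0.606) and 1.17 (1.13 to 1.20).

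The scavenger genes separated the groups further than the heme and iron genes did. Marco stood at 6.18 per 10000 (5.99 to 6.38), 0.453 times (0.437 to 0.469) its level of 13.6 in Vcam1-high cells and 4.48 times (4.20 to 4.78) its level of 1.38 in Cx3cr1-positive cells. Cd5l stood at 5.95 (5.76 to 6.15), against 15.1 and 1.54, with ratios of 0.394 (0.381 to 0.408) and 3.88 (3.64 to 4.13). In cells with late erythroid RNA the levels were 24.5 for Hmox1, 13.1 for Slc40a1, 6.63 for Marco and 8.97 for Cd5l. The erythroid reference cells held 1.56 of Hmox1, 0.888 of Slc40a1, 0.465 of Marco and 0.498 of Cd5l. A count of Marco was found in 59.0% of the Vcam1-low Cx3cr1-low cells at 5000 counts per cell (79.7% before thinning), in 84.5% of Vcam1-high, 29.8% of Cx3cr1-positive and 19.9% of erythroid reference cells (57.1% before thinning).

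Set against all 2719 other cells, the 4 genes were 1.72, 1.83, 1.88 and 1.61 times as high for Hmox1, Slc40a1, Marco and Cd5l, and against the 1289 other C1q cells they were 0.715, 0.756, 0.758 and 0.645 times as high. The 4 genes were thus higher than in the rest of the library together, and lower than in the other C1q cells together. With cells above a limit for RNA of another lineage (given below) left out of both sides, their sum was 0.879 times that of all other cells, in place of 1.75 times. With a C1q limit of 30 per 10000 for both groups, the ratio of the summed 4 genes to that of the other C1q cells was 0.799.

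The 374 cells were unlike each other in these genes. Hmox1 ran from a lower quartile of 5.51 through a median of 12.8 to an upper quartile of 28.7 and a highest cell of 125.1 per 10000. Slc40a1 was more even, with quartiles of 6.51 and 16.3 around a median of 11.2. The Marco median of 1.95 lay well below its pooled level, with quartiles of 0.496 and 6.53 and a highest cell of 86.0. Cd5l had a median of 2.37, quartiles of 0.511 and 8.35, and a highest cell of 52.7. For comparison, median Marco was 7.99 in Vcam1-high and 0.453 in Cx3cr1-positive cells.

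**Figure D2:**
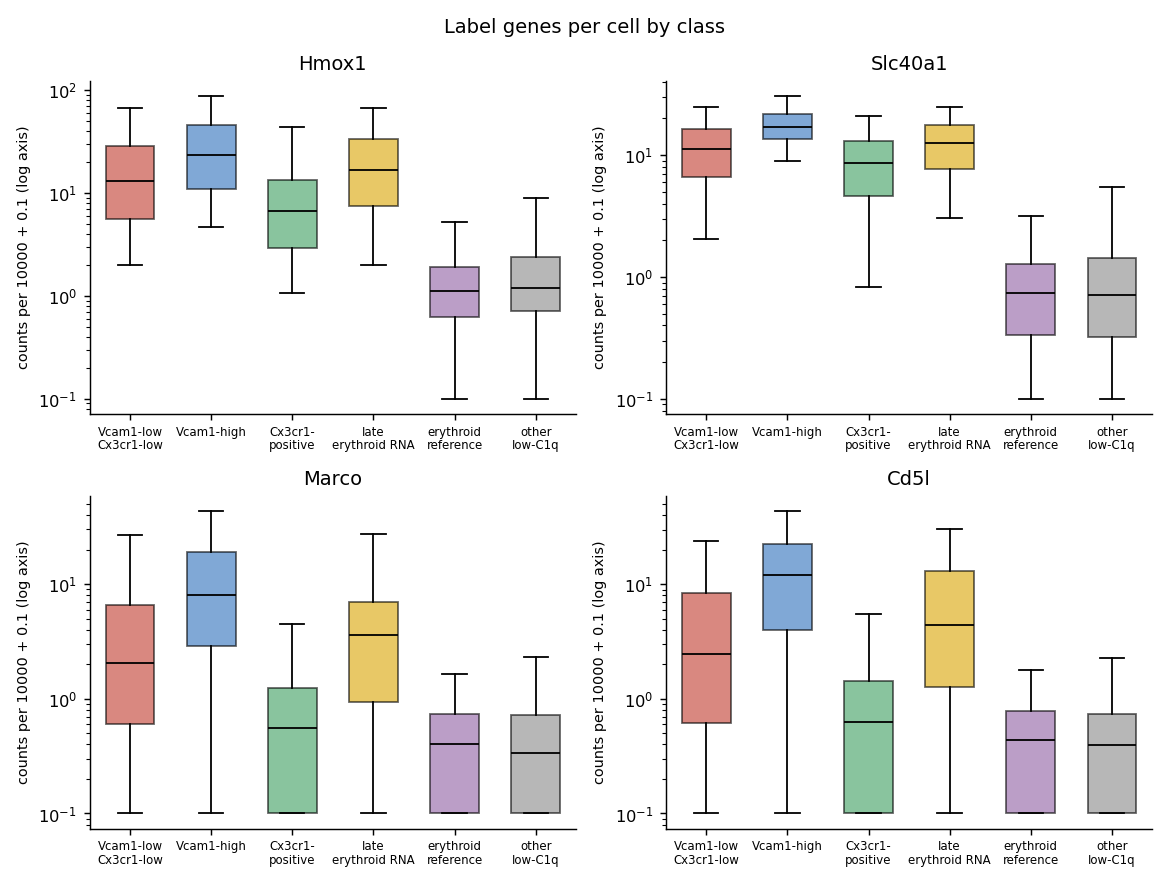
Levels of Hmox1, Slc40a1, Marco and Cd5l in single cells, in counts per 10000 of each cell, by group of cells. Boxes show the quartiles, lines the medians and whiskers the 5th to 95th percentiles, and the median of the Vcam1-low Cx3cr1-low cells lies between those of Vcam1-high and Cx3cr1-positive cells for each gene (12.8 against 23.2 and 6.501 for Hmox1).

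Cells with all 4 genes at a high level were few. None of the 4 reached the Vcam1-high median in 167 cells (44.7%), while 109 cells reached it for 1 gene, 56 for 2, 36 for 3 and 6 (1.604%) for all 4. Among Vcam1-high cells 89 (13.8%) reached it for none and 83 (12.9%) for all 4, and among Cx3cr1-positive cells 349 (77.2%) reached it for none. Over the 374 cells, Spearman's rho was 0.590 between Marco and Cd5l, 0.339 between Hmox1 and Slc40a1, 0.145 between Hmox1 and Marco, and 0.136 between Hmox1 and Cd5l. These are descriptions over cells that share a library and differ in depth. Marco and Cd5l thus varied together more closely than either did with Hmox1. Marco also followed Vcam1 below its limit (rho 0.417) and Timd4 (0.419), the phosphatidylserine receptor by which macrophages take up dying cells.

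Of 6503 genes detected in at least 20% of the 374 cells, the 10 whose levels followed the sum of the 4 marker genes most closely were Fth1 (Spearman's rho 0.603), Ftl1 (0.540), Il18bp (0.488), Fcna (0.479), Ctsd (0.468), Lgals3 (0.465), Igf1 (0.443), Cela1 (0.420), Timd4 (0.415) and Sat1 (0.410). Fth1 and Ftl1 encode the subunits of ferritin, which stores iron, Il18bp a binding protein that blocks interleukin 18, Fcna the lectin ficolin A, and Ctsd a lysosomal protease. The lowest values were those of Phgdh (-0.38), an enzyme of serine synthesis, Mef2c (-0.31), a transcription factor, and Snrpg (-0.31), a splicing protein.

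The marker genes also varied with the amount of C1q RNA that the rule required. The cells were cut by C1q into 4 groups of like size. From the group with the least C1q (94 cells, 10.0 to 21.1 per 10000) through the middle groups to the one with the most (94 cells, 47.9 to 113.1), the pooled Marco level was 2.33, 3.99, 6.87 and 12.2. Cd5l followed the same order, at 2.53, 3.21, 7.21 and 11.3, as did Timd4, at 0.686, 1.17, 1.85 and 3.42. Slc40a1 stood at 6.19, 10.7, 13.49 and 13.3, and Hmox1 at 13.99, 18.1, 21.4 and 17.2, so neither was highest in the last group. The median sum of lysosomal genes was 55.2 in the first group and 188.2 in the last, and that of macrophage core genes 35.4 and 90.9. The share of cells above a limit for RNA of another lineage (the 95th percentile of Vcam1-high cells for any of 9 lists of such genes) moved with C1q, at 69.2, 54.8, 40.9 and 42.6%. For mast cell and mesenchymal genes that limit was 0, so any count put a cell above it. The part of this share in the levels was not tested.

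Pooled levels were next compared across genes with at least 50 counts in the C1q cells and 1 per 10000 in either group, and a gene was counted as different at 1.5-fold or more. Against the other C1q cells, 22 of 1582 genes were higher in the Vcam1-low Cx3cr1-low cells (1.39%) and 52 were lower (3.29%). Of the 52, 5 were genes of the rule. The number of lower genes moved with the limits, from 11 with C1q at 30 or more per 10000 to 113 with no Cx3cr1 count and 149 with Vcam1 under 2. Against the Vcam1-high cells 37 of 1622 genes were higher (2.28%) and 197 lower (12.1%), and against the Cx3cr1-positive cells 42 of 1586 were higher (2.65%) and 73 lower (4.6%). Against the cells with late erythroid RNA 19 of 1564 were higher (1.21%) and 106 lower (6.78%), and against all other cells 162 of 1519 were higher (10.7%) and 67 lower (4.41%). The median ratio over these genes lay between 0.987 and 1.08.

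Of 13 measured genes of heme breakdown and iron handling 1 stood above its level in Vcam1-high cells, and 9 of 11 stood above their level in Cx3cr1-positive cells. Against Vcam1-high cells 7 of 13 such genes were at least 1.5-fold lower and 0 higher (median ratio 0.664), and against Cx3cr1-positive cells 2 of 11 were higher and 0 lower (median ratio 1.13). Beyond Hmox1 and Slc40a1, Slc48a1, which carries heme out of the phagolysosome, stood at 1.74 per 10000 (ratios 0.658 and 1.13). Blvra, the biliverdin reductase that turns the product of heme oxygenase into bilirubin, stood at 1.65 (0.709 and 1.25). Blvrb, a second biliverdin reductase, stood at 6.31 (1.03 and 1.51). Ferritin RNA was abundant, with Ftl1 at 129.1 (0.777 and 1.11) and Fth1 at 97.8 (0.804 and 1.32). Lrp1, which takes up heme bound to hemopexin, stood at 1.68 (0.512 and 0.850), Slc11a1, an iron transporter of the phagosome, at 0.743 (0.582 and 0.820), and the transferrin receptor Tfrc at 1.77 (0.815 and 1.03). Against all other cells of the library 7 of 12 heme and iron genes were at least 1.5-fold higher and 1 lower.

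Of 11 transcription factors of this program, 1 was at least 1.5-fold lower than in Vcam1-high cells (median ratio 0.854), near the 12.1% over all genes, and against Cx3cr1-positive cells 1 was higher and 2 lower (0.845). Spic, which directs the iron-recycling state of macrophages, stood at 1.38 per 10000 (ratios 0.668 and 1.34). Nr1h3, the sterol sensor LXR alpha, stood at 2.87 (0.854 and 1.52), and it had the highest ratio of all genes against the rest of the library, 2.46 over a level of 1.17. The factor Maf stood at 4.38 (0.938 and 0.611), Zeb2 at 3.07 (0.838 and 0.617) and Spi1, which encodes PU.1, at 2.74 (1.01 and 0.845). Id3, an inhibitor of helix-loop-helix factors, stood at 3.36 (0.885 and 0.733).

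Most scavenger receptors and genes for the uptake of dying cells were lower than in Vcam1-high cells. In that comparison 9 of 11 scavenger and pattern recognition genes, the marker Marco among them, were at least 1.5-fold lower and 0 higher (median ratio 0.515). Against Cx3cr1-positive cells 4 of 9 were higher and 2 lower (1.08). Fcna stood at 4.30 per 10000 (ratios 0.388 and 2.23), and Lgals3, galectin 3, at 5.05 (0.707 and 1.80). Mrc1, the mannose receptor, stood at 1.80 (0.636 and 0.493), Msr1, a scavenger receptor for modified lipoproteins, had ratios of 0.814 and 0.680, and the lysosomal glycoprotein Cd68 0.616 and 0.773.

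All 6 measured genes of the list for uptake of dying cells, which holds the marker Cd5l, were at least 1.5-fold lower than in Vcam1-high cells (median ratio 0.483). Of 5 measured against Cx3cr1-positive cells 1 was higher, Cd5l itself, and 2 lower. Timd4 stood at 1.73 (ratios 0.483 and 1.399), and the receptor kinases Axl and Mertk at 2.13 (0.483 and 1.13) and 0.930 (0.424 and 0.966). Both kinases bind phosphatidylserine on dying cells through bridging proteins. Timd4 had a count in 52.5% of the cells at 5000 counts per cell, against 6.75% of the erythroid reference cells (77.0% and 18.0% before thinning).

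The list of Kupffer cell and fetal liver macrophage genes, which holds Cd5l, Marco and Slc40a1 themselves, was lower than in Vcam1-high cells and mixed against Cx3cr1-positive cells. Of 14 genes 9 were at least 1.5-fold lower than in Vcam1-high cells and 0 higher (median ratio 0.613), and of 13 measured against Cx3cr1-positive cells 4 were higher and 3 lower (1.17). Cdh5, the cadherin of endothelial junctions, stood at 1.20 per 10000 (ratios 0.421 and 1.97), and Folr2, a folate receptor, at 0.572 (0.490 and 1.34).

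Most lysosomal genes and some lipid genes were at least 1.5-fold lower than in the Vcam1-high cells. Of 22 lysosomal genes 16 were at least 1.5-fold lower and 0 higher (median ratio 0.595), while against Cx3cr1-positive cells 1 of 21 was higher and 2 lower (0.929). Ctsd stood at 19.9 per 10000 (ratios 0.475 and 1.14), the protease Ctsb at 23.2 (0.536 and 0.929), and Acp5, an acid phosphatase, at 1.10 (0.583 and 1.91). Of 10 lipid genes 5 were lower than in Vcam1-high and 2 lower than in Cx3cr1-positive cells. Apoe, the lipoprotein component, stood at 12.7 per 10000, 0.826 and 0.379 times the levels of those groups, and Abca1, the cholesterol exporter, at 1.20, 0.416 times the Vcam1-high level. Of 11 proliferation genes 1 was at least 1.5-fold higher than in Vcam1-high cells and 0 lower (median ratio 1.06), and 0 of 11 differed by 1.5-fold from Cx3cr1-positive cells (0.994). Mki67, a marker of cycling cells, stood at 2.32 (0.850 and 0.907).

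**Figure D3:**
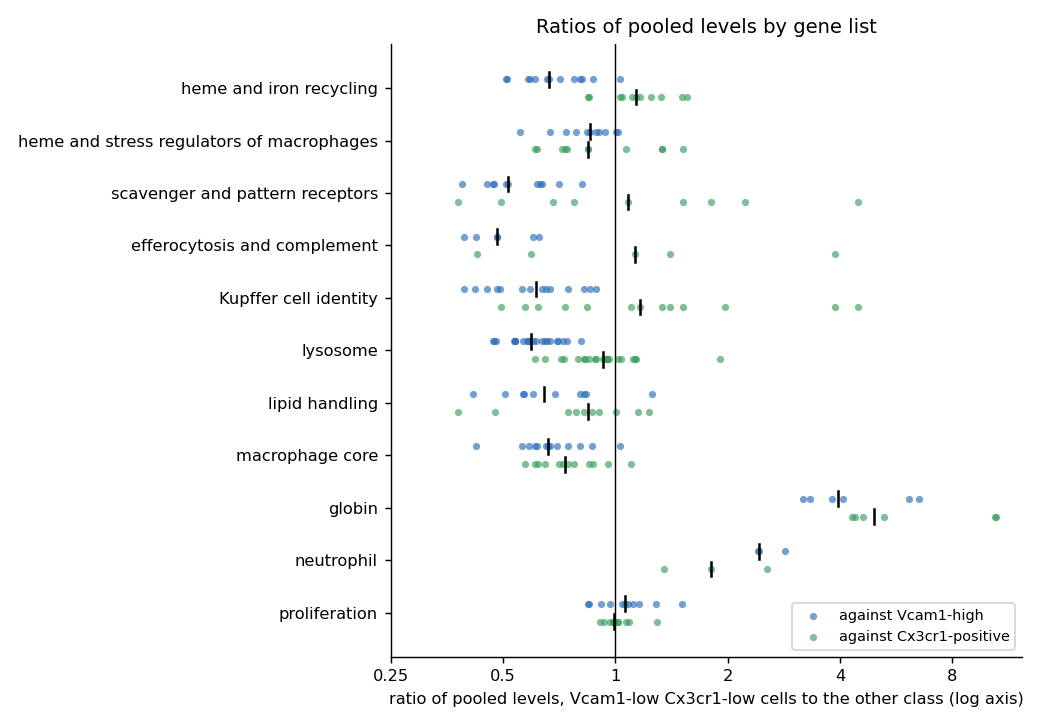
Ratio of the pooled level in Vcam1-low Cx3cr1-low cells to that in Vcam1-high cells (blue) and in Cx3cr1-positive cells (green) on a log axis, for each gene of the fixed lists (points), with list medians as black ticks. The blue medians of the heme and iron, scavenger, Kupffer and lysosomal lists lie at 0.664, 0.515, 0.613 and 0.595, and the green ones at 1.13, 1.08, 1.17 and 0.929.

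Some genes placed the cells below both neighbours. The macrophage core list had 7 of 13 genes at least 1.5-fold lower than in Vcam1-high cells (median ratio 0.659) and 4 of 12 lower than in Cx3cr1-positive cells (0.735), with 0 higher in either. Outside the genes of the rule, the lowest ratios against Cx3cr1-positive cells were those of F13a1, a clotting factor subunit of monocytes and young macrophages (0.403 against 2.22 per 10000, ratio 0.182), and the microglial gene Fcrls (0.292 against 1.22, ratio 0.240). Against Vcam1-high cells the lowest outside the rule were Tmem26 (ratio 0.323), Paqr9 (0.369), Fcna (0.388), Gfra2 (0.393) and Cd5l (0.394). Against the pooled other C1q cells the lowest outside the rule were Lpin2 (0.439, but 1.15 without the limit on Tmcc2 and Xpo7), which acts in lipid synthesis, Abca1 (0.538), the amino acid carrier Slc7a8 (0.552), Abhd12 (0.567) and Apoe (0.569).

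The genes that were higher than in the other C1q cells were led by genes of red cells, neutrophils and hepatoblasts, and a few cells carried most of their counts. The embryonic globin genes Hbb-y and Hba-x had ratios of 8.01 and 6.39 to the other C1q cells, and Hba-a1, an adult alpha globin, 2.31. Hbb-y had a pooled level of 57.5 per 10000, a median cell at 1.39 and a highest cell at 2835.3. S100a8 and S100a9, which encode the subunits of the neutrophil protein calprotectin, had ratios of 2.75 and 2.20. The S100a8 level was 6.02, with a median of 1.07 and a highest cell at 810.8. Alb and Afp, albumin and alpha-fetoprotein of hepatoblasts, had ratios of 2.24 and 2.17, with median cells at 0 and 0.603. All 6 globin, 3 neutrophil and 2 hepatoblast genes that were measured passed 1.5-fold. With C1q at 30 or more per 10000, 2 genes in place of 22 were higher, and among cells with no Cx3cr1 count the S100a8 ratio was 0.364.

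The 20 cells with the highest sums held 77.6% of the globin counts per 10000 in the 374 cells, 81.7% of those of neutrophil genes and 70.8% of those of hepatoblast genes. The median summed globin level was 49.5 here and in Vcam1-high cells, against 6165.5 in the erythroid reference cells. A sum above the 95th percentile of Vcam1-high cells was found in 28 cells for globin, 28 for neutrophil, 40 for hepatoblast, 43 for megakaryocyte and 72 for monocyte genes. This limit was 0 for mast cell and mesenchymal genes, so any count passed it (17 and 20 cells). It was 1.86 and 1.29 per 10000 for lymphoid and progenitor genes. Counting any of 9 such lists, 194 of the 374 cells (51.9%) were above a limit, against 225 of the Vcam1-high cells (34.9%) and 365 of the Cx3cr1-positive cells (80.8%), most of the last through monocyte genes (275 cells). Without such cells in either group, 180 cells remained, and the ratio to the other C1q cells was 0.967 for Hbb-y, 0.678 for Hba-x and 0.966 for Hba-a1, which leaving out cells by their globin sum lowers by construction. The sum of the 4 marker genes was then 49.6 per 10000, 0.676 times that of the other C1q cells. The source of these counts was not tested.

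**Figure D4:**
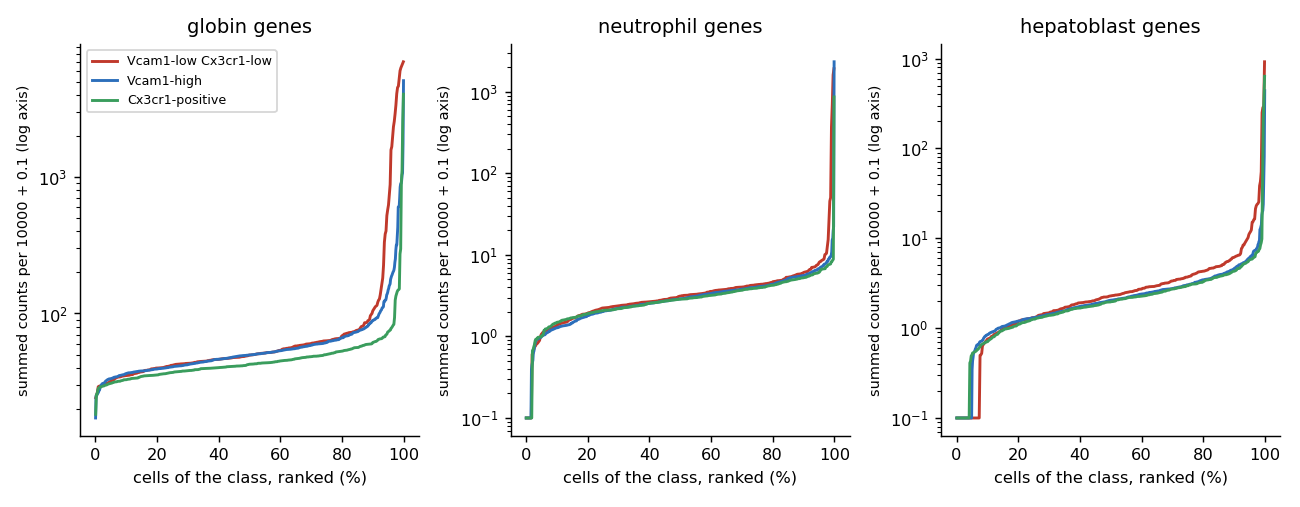
Summed levels of globin, neutrophil and hepatoblast genes per cell (counts per 10000, plus 0.1, on a log axis) in cells ranked from lowest to highest within each group (horizontal axis, % of cells). The Vcam1-low Cx3cr1-low cells follow the Vcam1-high cells over most of the ranks, and their highest cells reach 7022.1 for globin, 1918.2 for neutrophil and 921.4 for hepatoblast genes.

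The cells did not stand apart by their nearest neighbours. With the genes of the rule left out, each cell's 20 nearest neighbours were found on 30 principal components. Among the neighbours of Vcam1-low Cx3cr1-low cells 31.2% belonged to the same group, 32.3% were Vcam1-high and 21.3% Cx3cr1-positive, and the group's share of the library was 12.1%. Most neighbours were of the own group for 71 of the 374 cells, compared with 553 of 644 Vcam1-high and 283 of 452 Cx3cr1-positive cells.

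For 36 of the cells (9.63%) most neighbours were cells below the C1q limit. These 36 had a median C1q of 12.5 per 10000 and a median depth of 23105 counts, against 35.5 and 11377 in the other 338. Their pooled S100a8 level was 31.3 against 1.16, and their summed globin level 1139.9 against 184.9. Hmox1 stood at 6.498 against 19.5 and Slc40a1 at 3.67 against 12. Among the 36 cells, 31 were above a limit for RNA of another lineage, as were 163 of the 338.

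The bulk libraries took no part in choosing the cells, and the marker genes were examined in them for the effect of EKLF loss. Of 12753 genes, 1239 were higher in EKLF-/- (9.72%) and 1356 lower (10.6%) by the quasi-likelihood test of edgeR at a Benjamini-Hochberg adjusted p under 0.05. Of the 4 marker genes, Cd5l passed. Its normalised counts were 208.7, 245.3 and 347.7 in EKLF+/+ and 113.4, 148.7 and 129.8 in EKLF-/- libraries (log2 difference -1.03, SE 0.212, edgeR adjusted p = 0.0136), and the groups did not overlap. Without EKLF-/- replicate 3 the adjusted p was 0.0532. Marco counts were 162.9, 218.3 and 356.4 against 78.9, 216.6 and 104.6 (log2 -0.89, SE 0.397, adjusted p = 0.137). EKLF-/- replicate 2 overlapped the EKLF+/+ libraries, and without it the values were -1.44 and adjusted p = 0.00919.

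Neither gene of heme and iron release passed in EKLF-/-. Hmox1 was at 688.9, 835.8 and 972.7 in EKLF+/+ and 729.5, 1249.6 and 682.1 in EKLF-/- (log2 0.09, SE 0.235, adjusted p = 0.792), and Slc40a1 at 1214.8, 1076.7 and 1499.1 against 1508.9, 1463.2 and 1348.2 (log2 0.19, SE 0.133, adjusted p = 0.315). Both genes overlapped between the groups. Ferritin RNA rose, with Ftl1 at 22786.4, 23545.6 and 25309.2 in EKLF+/+ and 53263.5, 83682.1 and 67883.3 in EKLF-/- (log2 1.52, adjusted p = 0.000944) and Fth1 higher by 0.97 on the same scale (adjusted p = 0.00278). In all, 3 of 22 heme and iron genes rose and 4 fell (median log2 0.11, against 0.02 over all genes). The rise of Hp, which encodes haptoglobin, did not pass without any one of the EKLF+/+ replicates or EKLF-/- replicate 3 (adjusted p of 0.0608 to 0.12).

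Timd4 fell in EKLF-/-, from 60.3, 85.2 and 115.9 to 28.1, 25.9 and 16.1 normalised counts (log2 -1.89, SE 0.313, adjusted p = 0.0056), with no overlap. It was among 5 of 16 Kupffer and fetal liver macrophage genes that fell, with Cd5l, Cdh5, Lyve1 and Mrc1, while Hpgd and Id3 rose (median log2 -0.41). Without one library, Hpgd did not pass in any of the 6 fits, Id3 and Mrc1 in none of the 4 without an EKLF+/+ replicate or EKLF-/- replicate 3, and Lyve1 not without EKLF+/+ replicate 1 or 3 or EKLF-/- replicate 3. Cdh5 and Lyve1 also stand in a list of endothelial genes, of which 7 of 10 fell and 0 rose (sums of 3652 to 4097 and 2465 to 2593 normalised counts). Of 8 mesenchymal genes 5 fell, and of 8 progenitor genes 4. Beside these, 8 of 13 erythroid genes fell and 0 rose, with summed normalised counts of 167454 to 196003 in EKLF+/+ and 60719 to 93353 in EKLF-/-, and 7 of 12 neutrophil genes rose, with sums of 76624 to 98999 and 105399 to 206497. Of these S100a8 did not pass without EKLF+/+ replicate 1, 2 or 3, S100a9 also without EKLF-/- replicate 3, and Camp without EKLF+/+ replicate 1 or 3 or EKLF-/- replicate 3. The macrophage core sums were 15419 to 19329 and 21144 to 34024, with 4 of 14 genes higher. The part of these lists in the values of the marker genes was not tested.

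In the EKLF/GFP sorts 2694 of 14238 genes were higher in EKLF/GFP+ cells (18.9%) and 3673 lower (25.8%). Hmox1 and Slc40a1 rose with the EKLF reporter. Hmox1 counts were 1397.3, 1197.3 and 2010.9 in EKLF/GFP- and 2387, 3582.9 and 4960.4 in EKLF/GFP+ libraries (log2 1.25, SE 0.279, edgeR adjusted p = 0.00739). Slc40a1 counts were 1799.9, 1995.8 and 2084 against 3105.6, 4138.2 and 5054.9 (log2 1.06, SE 0.165, adjusted p = 0.00114). Neither gene overlapped between the groups.

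Marco and Cd5l missed the threshold there, and EKLF/GFP+ replicate 1 lay among the EKLF/GFP- libraries for both. Marco was at 492.7, 392.4 and 978.9 in EKLF/GFP- and 590.8, 1722.2 and 2069.5 in EKLF/GFP+ (log2 1.24, SE 0.482, adjusted p = 0.0699, and 0.00811 without that library or 0.0309 without EKLF/GFP- replicate 3). Cd5l was at 361.3, 271.1 and 709.8 against 381.6, 1121.4 and 1314.6 (log2 1.07, SE 0.484, adjusted p = 0.109, and 0.014 or 0.0425 without those libraries). Timd4 had a log2 difference of 0.93 (adjusted p = 0.0889, and 0.0117 without EKLF/GFP+ replicate 1). With a replicate block in edgeR all 3 passed (adjusted p of 0.0253 for Marco, 0.0494 for Cd5l and 0.0416 for Timd4). Marco also passed with no filter on low counts (0.0331), and Timd4 with DESeq2 (0.0217).

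**Figure D5:**
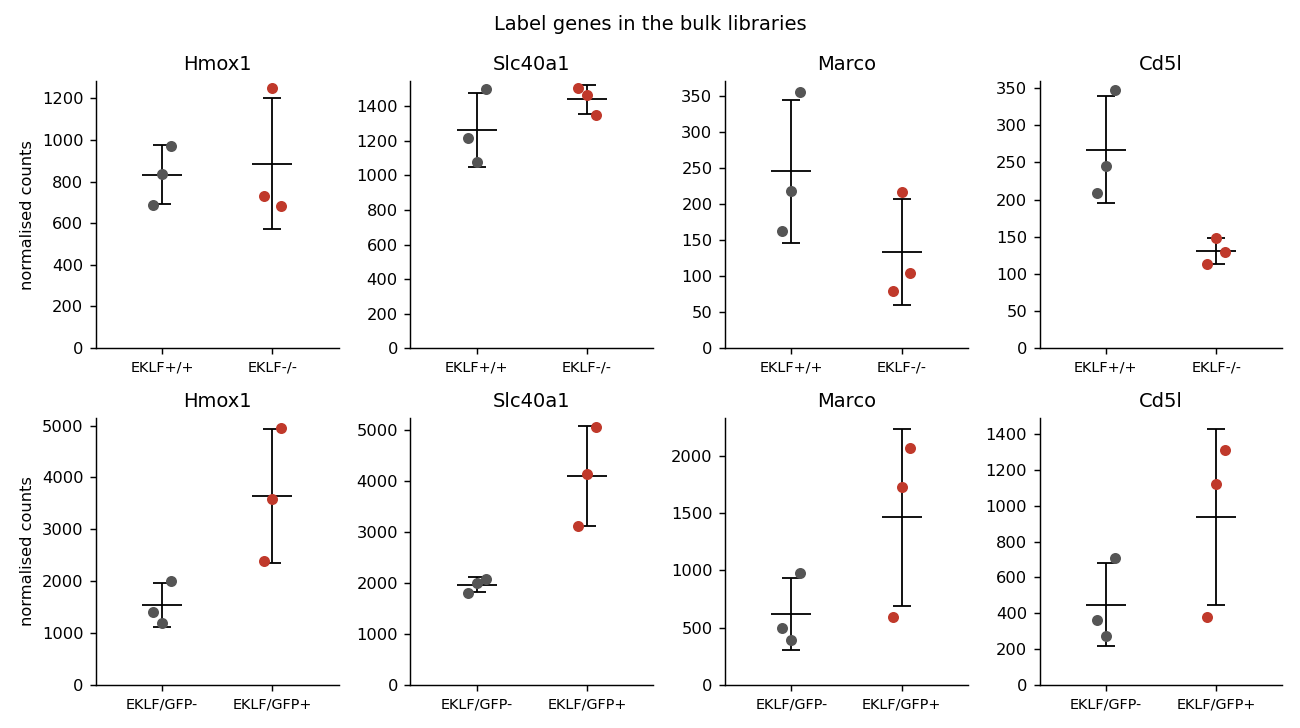
Normalised counts of Hmox1, Slc40a1, Marco and Cd5l in the 12 bulk libraries (points), with group means and SD (n = 3 each). The EKLF/GFP+ libraries lie above the EKLF/GFP- libraries for Hmox1 and Slc40a1, and the EKLF-/- libraries lie below the EKLF+/+ libraries for Cd5l.

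Of 23 heme and iron genes 14 rose in EKLF/GFP+ cells and 4 fell (median log2 0.57, against -0.01 over all genes). Those that rose included Fth1 (0.87), Ftl1 (0.81), Blvrb (1.36) and Slc48a1 (0.64), and those that fell were Hmox2, Cp, Hp and Lrp1. Cp, at 9.35 to 23.0 counts, did not pass with DESeq2 (adjusted p = 0.194), with no filter on low counts (0.0973) or in 5 of the 6 fits without one library, all but that without EKLF/GFP- replicate 1. Lrp1 did not pass with DESeq2 (0.0506) or without EKLF/GFP- replicate 1, 2 or 3 or EKLF/GFP+ replicate 2 (0.0585 to 0.112). Among those that rose, Ncoa4 did not pass without EKLF/GFP- replicate 3 or EKLF/GFP+ replicate 3, and Flvcr1 without EKLF/GFP- replicate 1 or 3. Among the genes that chose the cells, Cx3cr1 fell from 325.6, 282.1 and 374.3 to 28.4, 82.3 and 115.3 normalised counts (log2 -2.13, adjusted p = 0.00344), Tmcc2 rose by 1.53 and Xpo7 by 0.63, Vcam1 had a log2 difference of 0.90 (adjusted p = 0.0694, but 0.0344 with no filter on low counts and 0.00491 without EKLF/GFP+ replicate 1), and none of C1qa, C1qb and C1qc passed, although C1qc did without that replicate (0.0268). Fcna had a log2 difference of 1.21 (adjusted p = 0.0225) with overlapping groups, and it did not pass without EKLF/GFP- replicate 1 or 2 or EKLF/GFP+ replicate 2 or 3 (0.0601 to 0.0789). Of 17 Kupffer and fetal liver macrophage genes 2 rose and 4 fell, no larger shares than over all genes (18.9% higher and 25.8% lower). Of the 2, Slc40a1 and C6, C6 did not pass in 5 of the 6 fits without one library, all but that without EKLF/GFP+ replicate 1.

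Genes by which the cells differed from their neighbours were also followed in the sorts. Of 72 genes outside the rule that were at least 1.5-fold lower than in Cx3cr1-positive cells, 62 fell in EKLF/GFP+ and 1 rose (median log2 -1.53, against 25.8% lower and 18.9% higher over all genes). In EKLF-/- 15 of 71 rose and 2 fell (0.37, against 9.72% higher and 10.6% lower over all genes). Of 190 genes lower than in Vcam1-high cells, 86 fell in EKLF/GFP+ and 26 rose (-0.38). In EKLF-/- 24 of 189 of these rose and 27 fell (0.05), not far from the shares over all genes. Among genes at least 1.5-fold higher than in Cx3cr1-positive cells, globin genes included, 21 of 39 rose in EKLF/GFP+ and 7 fell (0.77). Among those higher than in Vcam1-high cells 13 of 33 rose and 10 fell (0.15). In EKLF-/- 8 of 37 rose and 12 fell for the first list, and 7 of 32 rose and 6 fell for the second. In the EKLF/GFP+ sorts 13 of 13 erythroid genes rose (sums of 85352 to 108863 in EKLF/GFP- and 225240 to 259683 in EKLF/GFP+), 13 of 13 neutrophil genes fell (115668 to 134835 and 12745 to 20641) and 11 of 15 macrophage core genes fell (34944 to 42298 and 6990 to 15290). Monocyte genes fell in 12 of 12 cases (26755 to 29922 and 3115 to 4070), endothelial genes in 8 of 10, lymphoid genes in 7 of 7 and progenitor genes in 8 of 8. Genes of monocytes such as F13a1 were among the 72. The part of these lists in the counts above was not tested.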

How the data were processed

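The single-cell table holds estimated UMI counts per gene and cell, which the authors made with alevin (4.29% of its non-zero values are not whole). The deposited EKLF+/+ and EKLF-/- tables hold read counts per gene from STAR and HTSeq, in which rows that name no gene took 67.2 to 72.7% of the reads and were left out. The EKLF/GFP tables hold estimated counts per transcript, which the authors made with Salmon. They were summed to 35389 genes and rounded, and 0.102 to 0.12% of their counts matched no gene. Per the labels the builds were mm10 and GRCm38, DESeq2 and Seurat were among the tools, the methods name GRCm38.p6vM24 for the single-cell reference, and tool versions are not given in the sources used here. A further 5 columns in the tables matched no sample and were not used. For the bulk libraries, older symbols were translated for 2286 genes.

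Of 3096 barcodes, 3 with fewer than 200 detected genes were left out. Cells were pooled from 1 library, so no test was made between them. Scrublet (scanpy 1.11.5) called 0 of 3093 cells doublets at a score limit of 0.472 and was taken not to have worked, so doublets were not removed. Bulk genes that reached 10 counts in 3 or more of the 6 libraries compared were tested with edgeR 4.0.16 (quasi-likelihood, TMM, Benjamini-Hochberg over all genes tested, adjusted p under 0.05). The test was tested on simulated data with 200 changed genes. It recovered 89% of 2-fold and 100% of 4-fold changes for EKLF-/- (12638 genes) and 85% and 98% for EKLF/GFP+ (13994 genes). DESeq2 1.42.0, other filters, scalings and cell limits were alternatives. The methods call the libraries biological triplicates and do not say whether each came from its own embryo, so the p-values measure the spread between these libraries.

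The cells, the 27 gene lists and the tests were chosen with earlier results of these data known. The genes named are those of the rule, the 4 markers, members of the heme and iron, regulator, scavenger, uptake and Kupffer lists, examples with the highest or lowest ratios in the other lists, the 15 highest and 15 lowest against other C1q cells, the 10 highest against all other cells, the 8 highest and lowest against each neighbouring group, and the 10 most like the marker sum. The bulk comparisons name genes of the rule, the markers, the same 15 and 15 genes, and members of the heme and iron and Kupffer lists. Some genes of the lists are not reported here.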

Additional observations from a re-analysis of the deposited data

How the results depend on the processing

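The number of cells, the level of the 4 marker genes together (40.21 per 10000) and its ratios to the other C1q cells (0.7201) and to all other cells (1.75) moved with the limits. In the same order they were 196, 30.7, 0.5544 and 1.269 with Vcam1 under 2 per 10000, 187, 49.16, 0.9295 and 2.081 with no Cx3cr1 count, 211, 50.49, 0.7987 and 2.174 with C1q at 30 or more, and 329, 47.7, 0.8604 and 1.609 at 5000 counts per cell. Without the limit on Tmcc2 and Xpo7 there were 449 cells, 39.53 and 0.6956. Without globin genes in the total the level and ratios were 41.1, 0.7318 and 1.647, and as means over cells 45.48, 0.8092 and 1.543. With cells above a limit for another lineage left out, an alternative chosen after seeing the data, they were 180, 49.64, 0.6761 and 0.8788. The globin limit of 148.2 per 10000 lay below the 5th percentile of the erythroid reference cells (779.8). Most of those cells thus left the group of all other cells as well. The part of this in the turn of the last ratio was not tested.

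Against the other C1q cells 22 genes were higher and 52 lower. With Vcam1 under 2, 149 were lower. With no Cx3cr1 count 9 were higher and 113 lower, at C1q of 30 or more 2 and 11, and without the other-lineage cells 5 and 80. At 5000 counts, and as means over cells, 13 were higher, and without the Tmcc2 and Xpo7 limit 84 were lower. Single ratios that crossed 1 were, with Vcam1 under 2, Cstdc4 0.6425, Cstdc5 0.8828 and Camp 0.5739. With no Cx3cr1 count they were S100a8 0.3642, Cstdc4 0.3713, Stfa1 0.376, Cstdc5 0.3019, S100a9 0.359, Camp 0.3344 and Srgn 0.5615. At C1q of 30 or more they were Car2 0.6154, Cstdc4 0.7202, Cstdc5 0.9437, Cpox 0.7702, Hba-a2 0.9932, Camp 0.9586 and Srgn 0.9099. Lpin2 was 1.146 without the Tmcc2 and Xpo7 limit, Hba-a2 0.8955 without globin genes in the total, and Hbb-y 0.9674, Hba-x 0.678, Cstdc4 0.8351 and Hba-a1 0.9661 without the other-lineage cells. The cause was not tested for these. A limit of 1000 detected genes left out no C1q cell and so bears on none of these values.

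In EKLF-/-, leaving out 1 library at a time gave 346 to 1730 higher genes, 575 to 1889 lower and 16 to 34 of the named genes (29 with all). With fewer libraries tested, the counts were lowest without EKLF+/+ replicate 1 (346 and 576), 2 (417 and 609) or 3 (370 and 632) and without EKLF-/- replicate 3 (426 and 575). In EKLF/GFP+ the ranges were 1917 to 2785, 2820 to 3453 and 37 to 51 (45 with all). Same-numbered libraries did not deviate together (correlations -0.0054, 0.0034 and 0.0561, and 0.0298, -0.0898 and 0.0238). Differently numbered EKLF/GFP libraries had correlations from -0.1556 to 0.1654. With 3 libraries per group these values cannot show whether the numbers mark pairs. With a replicate block 864 genes were higher and 1037 lower in EKLF-/-, and 2363 and 3423 in EKLF/GFP+, where Marco (adjusted p = 0.0253), Cd5l (0.0494), Timd4 (0.0416), Vcam1 (0.0261), Mrc1 (0.0266) and Clec4f (0.0472) passed. Without a filter on low counts Marco (0.0331) and Vcam1 (0.0344) passed there, and with DESeq2 Timd4 (0.0217), Mrc1 (0.0299), Hpgd (0.0421) and Spic (0.0469).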

Other observations

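Genes of interferon response, chemokines and antigen presentation were not part of the markers of the Vcam1-low Cx3cr1-low cells. Ifitm3, an antiviral membrane protein, stood at 3.98 per 10000 and was 1.68 times as high as in Vcam1-high cells and 0.509 times as high as in Cx3cr1-positive cells. Of 4 chemokine and cytokine genes 3 were at least 1.5-fold lower than in Vcam1-high cells and 0 of 4 differed by that much from Cx3cr1-positive cells. The eosinophil attractant Ccl24 stood at 3.85 (0.573 and 1.28) and interleukin 18, Il18, at 1.16 (0.609 and 1.43), whose binding protein Il18bp followed the marker genes from cell to cell. B2m, the shared chain of class I molecules, stood at 6.40 (0.874 and 0.725), and Cd74, the chaperone of class II molecules, at 0.112.

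Of 8 listed genes of the oxidative stress response 1 was at least 1.5-fold lower than in Vcam1-high cells and 0 of 8 differed by 1.5-fold from Cx3cr1-positive cells. Txnrd1, thioredoxin reductase, stood at 1.79 per 10000 (ratios 0.644 and 1.31), Gpx1, glutathione peroxidase, at 10.9 (1.09 and 1.26) and Prdx1, a peroxiredoxin, at 11.8 (0.971 and 1.05). These shares are near those over all genes. Outside the list, and chosen after their values were seen, the peroxiredoxins Prdx2 (1.71 and 1.68) and Prdx6 (1.95 and 1.66) were higher than in both neighbours, and glutathione reductase, Gsr, had a ratio of 1.52 to Cx3cr1-positive cells. Prdx2 stood at 5.43 per 10000 here and at 38.6 in the erythroid reference cells. Mitochondrial RNA had a median of 373.3 per 10000 in the Vcam1-low Cx3cr1-low cells, 481.5 in Vcam1-high and 430.0 in Cx3cr1-positive cells.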
